A study of Mus musculus with 7 samples.

Results

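The cells described here are the Gata1 positive, erythroid-leaning cells of a sort for bone marrow stem and early progenitor cells. Each holds RNA of Gata1, the transcription factor that directs red cell formation, together with other early red cell genes. A cell was called gated when it held at least 1 UMI (unique molecular identifier, 1 counted RNA molecule) of Gata1, at least 1 UMI of at least 2 of the 7 genes Klf1, Car1, Epor, Ermap, Aqp1, Rhd and Icam4, and 0 UMIs of Pf4, Ms4a2 and Mcpt8. Pf4 marks megakaryocytes, Ms4a2 mast cells and basophils, and Mcpt8 basophils. Only cells with at least 1000 UMIs, at least 500 genes and at most 10% mitochondrial UMIs were kept. Of 24430 kept cells, 160 were gated, which is 0.655%. The cells were thus chosen by measured values, the UMIs of 11 genes, so the levels of those genes are descriptions and were not tested.

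The study profiled single LSK cells from mouse tibia and femur marrow after red cell lysis, with the Single Cell 3′ v2 kit. LSK is a sort for cells that lack lineage markers and carry Sca-1 and cKit. The labels form 2 groups: 3 libraries labelled B4galt1 KO, of genotype 129S1/C57Bl/6, B4-/-, in which the galactosyltransferase gene B4galt1 is knocked out, and 4 libraries labelled WT, of genotype 129S1/C57Bl/6. The labels used here name no treatment, time point or age, and both groups share the mixed background and the sort. Nothing in them says that the libraries of a label came from separate animals, so p-values over libraries measure the spread between these libraries, which may be technical.

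Red cells form from stem cells through progenitors that lose stem cell and megakaryocyte genes and gain red cell genes in a set order. GATA1 and its target KLF1 switch on the genes of heme synthesis, iron uptake, the red cell membrane and, last, the globins, while EPOR receives the erythropoietin signal. GATA1 also drives megakaryocytes, mast cells and basophils, so Gata1 RNA alone does not mark a red cell progenitor. Committed red cell progenitors are usually found among cells that have lost Sca-1.

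The libraries held 2616 to 9210 barcodes and 14970791 to 89747946 UMIs, and 1172 to 8862 cells each were kept, with median UMIs per kept cell of 8046 to 11083.5. They fell into 2 sets by their barcodes. KO replicate 3 and WT replicate 4 used one barcode list (list B) and held 152 of the 160 gated cells, and the other 5 libraries used another (list A), with 13.1 to 13.4% of barcode openings shared. KO replicate 3 and WT replicate 4 shared 68 kept barcodes, none of them of a gated cell, and any other pair of libraries shared 0 to 2. B4galt1 RNA, counted at the 3′ end, was at 51.2, 55.6 and 27.4 CPM (the UMIs of a gene per 1000000 UMIs of the cells summed) in the kept cells of KO replicates 1 to 3 and at 56.4, 69.2, 56.7 and 34.8 CPM in those of WT replicates 1 to 4. The labels do not say which part of the gene is deleted, and 3′ UMIs from outside the deleted part cannot check the genotype.

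Promoter sequences were available from RefSeq (GRCm38.p6) for 7 of the 8 genes that the rule asks for; Car1 had no entry. They are shown because the genes were counted together in the same cells, and because GATA1, the product of 1 of them, binds a short DNA word. The GATA word AGATAA, with the forms that begin with T, end with G or both (4 words in all), was searched on both strands in the 300 bases from 250 before to 50 after each gene's start. Of the 7 promoters 5 held one, against 29.8% of all 32851 promoters of the table. Those of Klf1, Ermap and Rhd follow, read 5′ to 3′ along the gene, with the GATA word or its reverse complement in capitals: Klf1 at chr8:84901732-84902031 on the plus strand, Ermap at chr4:119189946-119190245 on the minus strand and Rhd at chr4:134864286-134864585 on the plus strand.
Klf1: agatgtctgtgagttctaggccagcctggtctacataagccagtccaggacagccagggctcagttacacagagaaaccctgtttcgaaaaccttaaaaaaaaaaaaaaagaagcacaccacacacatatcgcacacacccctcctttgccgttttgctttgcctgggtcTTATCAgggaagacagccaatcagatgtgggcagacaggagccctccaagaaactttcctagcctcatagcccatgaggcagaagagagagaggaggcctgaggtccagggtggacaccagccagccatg
Ermap: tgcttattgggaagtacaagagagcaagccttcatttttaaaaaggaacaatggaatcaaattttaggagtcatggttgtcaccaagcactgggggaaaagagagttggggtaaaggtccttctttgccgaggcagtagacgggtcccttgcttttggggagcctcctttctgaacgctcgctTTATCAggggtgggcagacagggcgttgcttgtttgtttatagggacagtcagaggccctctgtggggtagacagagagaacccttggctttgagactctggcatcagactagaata
Rhd: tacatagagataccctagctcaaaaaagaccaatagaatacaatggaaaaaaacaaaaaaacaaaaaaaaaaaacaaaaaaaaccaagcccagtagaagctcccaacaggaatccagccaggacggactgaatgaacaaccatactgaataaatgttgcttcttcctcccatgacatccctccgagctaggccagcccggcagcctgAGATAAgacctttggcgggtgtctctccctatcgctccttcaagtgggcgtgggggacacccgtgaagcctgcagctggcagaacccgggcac

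The GATA word began 80 bases before the start in Klf1, 67 in Ermap and 43 in Rhd. Epor and Icam4, both on chromosome 9, held TTATCT at 54 and 43 bases before their starts. None of the 4 words was found in these windows of Gata1 itself and of Aqp1. A match describes letters and is not shown to be a bound site.

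Gated cells were concentrated in the list B libraries. KO replicates 1, 2 and 3 held 5, 0 and 47 of them, which is 0.163% (95% exact Clopper-Pearson interval 0.0529 to 0.379), 0% and 0.686% (0.504 to 0.911) of kept cells. WT replicates 1 to 4 held 0, 3, 0 and 105, which is 0%, 0.256% (0.0528 to 0.746), 0% and 1.18% (0.970 to 1.43). In the 3 libraries with 0 gated cells, a floor of 3 counts allows a share of up to 0.174% (KO replicate 2), 0.241% (WT replicate 1) and 0.200% (WT replicate 3), and the exact upper limits are 0.214, 0.296 and 0.246%, so the list A libraries cannot be told apart at this depth. These intervals and limits cover counting error only. The highest share lay under the WT label and shares of 0 under both, so the labels overlapped.

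By label, gated cells took 0.283% ± 0.358 (SD, n = 3) of KO-labelled and 0.360% ± 0.563 (SD, n = 4) of WT-labelled cells. The difference of -0.0774 percentage points did not pass an exact two-sided permutation test over libraries (p = 0.886, and 0.886 after Benjamini-Hochberg adjustment over 3 shares). The smallest p that 3 against 4 libraries allow is 0.0286. Within list A the difference was -0.00394 (exact permutation p = 1, smallest possible 0.1), and within list B, with 1 library a label, it was -0.499. The pooled direction turned to 0.0640 without KO replicate 2 and to 0.197 without WT replicate 4.

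**Figure D1:**
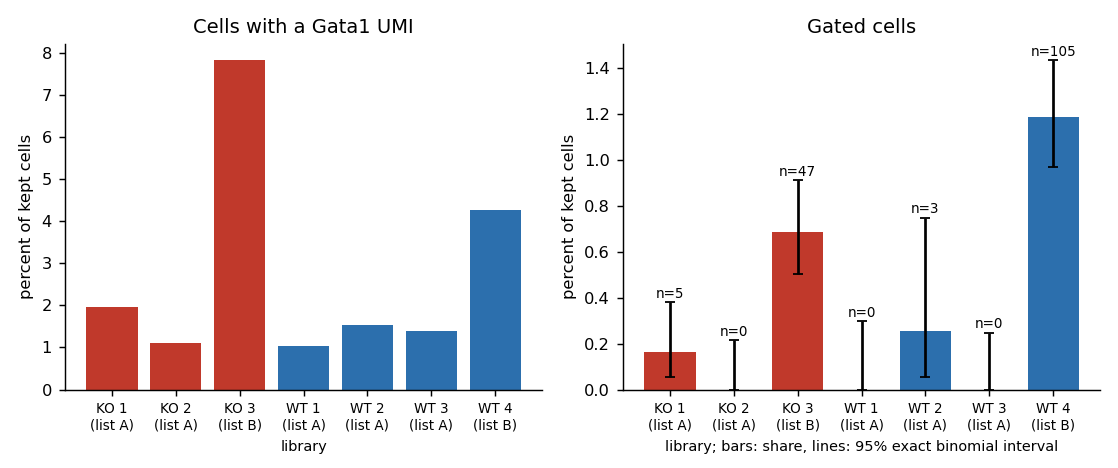
Share of kept cells with a Gata1 UMI (left) and share that passed the whole rule (right), in percent, for each library; red bars are KO-labelled, blue bars WT-labelled, and lines are 95% exact binomial intervals. KO replicate 3 has the highest Gata1 share, 7.82%, and WT replicate 4 the highest gated share, 1.18%.

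Cells with at least 1 Gata1 UMI, the first step of the rule, numbered 60, 19 and 536 in KO replicates 1 to 3 and 13, 18, 21 and 379 in WT replicates 1 to 4. Their shares were 1.95, 1.10 and 7.82% against 1.05, 1.54, 1.40 and 4.28%, so here KO replicate 3 stood above WT replicate 4. The means were 3.62% ± 3.66 (SD, n = 3) and 2.06% ± 1.49 (SD, n = 4), a difference of 1.56 percentage points (exact two-sided permutation p = 0.514, adjusted 0.814). It was 0.200 within list A (exact permutation p = 0.6) and 3.54 within list B, and -0.537 without KO replicate 3. As background, cells with at least 2 UMIs of Dntt, a lymphoid gene, held a Gata1 UMI in 1.28% (KO replicate 3) and 1.81% (WT replicate 4) of cases, at median depths of 12184 and 10026 UMIs, against 13053 and 14560 UMIs for all Gata1 cells. The exact intervals of these values are 0.734 to 2.07% and 1.28 to 2.49%, and 1 and 6 of those Dntt cells were gated. In the list A libraries the same background was 1.17 and 0.549% in KO replicates 1 and 2 and 1.07, 0 and 0.296% in WT replicates 1 to 3. It rests on 3, 1, 3, 0 and 1 cells with upper limits of 1.48 to 3.37%, so the Gata1 shares of 1.05 to 1.95% there stand near a background that is poorly known.

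The order of the list B libraries changed at the demand for 0 UMIs of Pf4, Ms4a2 and Mcpt8. Gata1 cells with at least 2 of the 7 erythroid genes numbered 211 in KO replicate 3 and 198 in WT replicate 4. That demand removed 164 of them in KO replicate 3 (77.7%), 152 of which held Pf4, and 93 in WT replicate 4 (47.0%), 80 with Pf4. In the sums of the removed cells with Pf4, Itga2b, the integrin chain of platelets, which the rule does not read, was at 315 and 122 CPM, against 38.0 and 20.7 CPM in all kept cells that were not gated. The levels of Pf4, a platelet chemokine (7260 and 2451 CPM), and of the erythroid genes Aqp1 (107 and 120 CPM) and Klf1 (43.4 and 84.6 CPM) in these cells follow from how they were selected.

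At the lower edge of the rule, the 21 gated cells with exactly 2 erythroid genes in each list B library stood beside cells with Gata1 and exactly 1 such gene, 62 in KO replicate 3 and 36 in WT replicate 4, that had 0 UMIs of the 3 excluded genes. Both sides had like depth, with median UMIs of 12835 and 11056 just inside and 12788 and 12273 just outside. Carbonic anhydrase 2 (Car2), a red cell enzyme the rule does not read, was at 1601 and 1712 CPM inside and 1596 and 1750 CPM outside. Mfsd2b, the sphingosine 1-phosphate exporter of red cells and platelets, was at 124 and 72.9 CPM inside and 40.4 and 21.6 CPM outside. Apoe was at 646 and 518 CPM inside and 333 and 270 CPM outside. Mpo, the myeloperoxidase of granulocyte precursors, was at 175 and 173 CPM inside and 662 and 363 CPM outside.

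Other cells missed the rule although they held at least 5 of the 7 erythroid genes. Each was counted once, under 0 Gata1 UMIs first and then under Pf4, and may have missed on more than 1 ground. Cells with at least 5 of the genes, gated or not, numbered 15 in KO replicate 3 and 90 in WT replicate 4. There were 5 in WT replicate 2 and 1 each in KO replicate 1 and WT replicate 1. In WT replicate 4, 68 were gated, 7 had 0 Gata1 UMIs, 6 held Pf4 and 9 held Ms4a2 or Mcpt8 without Pf4. In KO replicate 3, 10 were gated, 1 had 0 Gata1 UMIs, 3 held Pf4 and 1 held Ms4a2 or Mcpt8 without Pf4.

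The gated cells were not alike in how many of the 7 erythroid genes they held. In KO replicate 3 the numbers of cells with 2, 3, 4, 5, 6 and 7 of them were 21, 10, 6, 3, 1 and 6, and in WT replicate 4 they were 21, 9, 7, 13, 11 and 44. Cells with 2 to 4 were thus equally many, 37 in each library, and cells with 5 to 7 were 10 and 68. The 5 gated cells of KO replicate 1 held 2 or 3 of the genes, and the 3 of WT replicate 2 held all 7. The split at 5 was chosen after these numbers were seen.

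**Figure D2:**
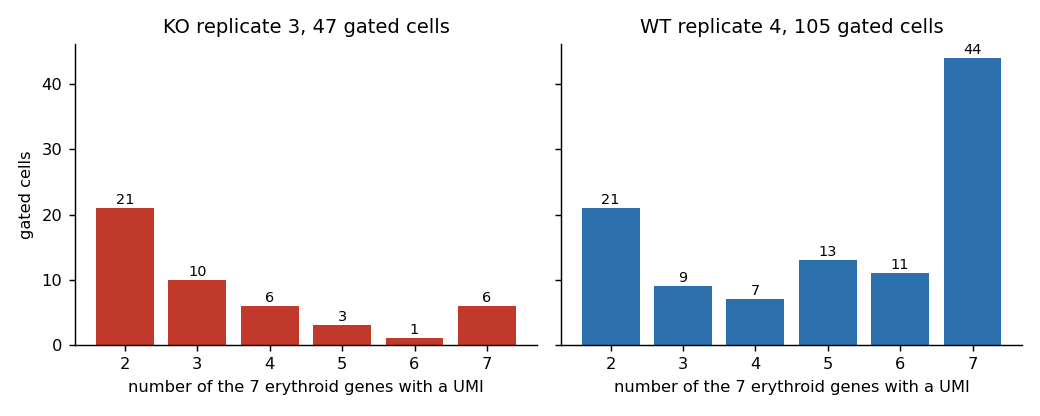
Number of gated cells by how many of the 7 erythroid genes they held at 1 UMI or more, in KO replicate 3 (left, 47 cells) and WT replicate 4 (right, 105 cells). Both libraries have 21 cells at 2 genes, and WT replicate 4 has 44 cells at all 7 against 6.

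Cells with 5 to 7 genes were 21.3% (95% exact interval 10.7 to 35.7) of the gated cells of KO replicate 3 and 64.8% (54.8 to 73.8) of those of WT replicate 4, a gap of 43.5 percentage points. This counts the genes of the rule in 1 library against 1 library and is a description, with no test. Depth moved with it, and its part in the gap was not tested beyond the values that follow. Of the gated cells 23.4% (KO replicate 3) and 59.0% (WT replicate 4) held over 2 times the median UMIs of their library, against 10.1% and 13.3% of kept cells, and doublets were not called. By number of genes, median UMIs were 24005 and 32814 in the cells with 5 to 7 genes and 12835 and 10758 in those with 2 to 4. When every cell was thinned to 3000 UMIs, 2 of 16 and 6 of 32 gated cells held 5 to 7 genes, a gap of 6.25 percentage points. Without cells over 2 times the median UMIs of their library the shares were 2 of 36 and 11 of 43, a gap of 20.03 percentage points. Among the kept cells of all libraries, the share of gated cells with 5 to 7 genes was 0.0486% ± 0.0842 (SD, n = 3) under the KO label and 0.256% ± 0.362 (SD, n = 4) under the WT label (exact two-sided permutation p = 0.543, adjusted 0.814).

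The labelled cell type was checked against its markers. Gata1, at least 1 UMI per cell by the rule, was at 160 CPM in the summed gated cells of KO replicate 3 and 148 CPM in those of WT replicate 4, against 11.7 and 5.54 CPM in all other kept cells. By number of genes, Gata1 was at 132 CPM in the 5 to 7 gene cells and 177 CPM in the 2 to 4 gene cells of KO replicate 3. In WT replicate 4 the values were 151 and 135 CPM. Since the rule asks for 1 Gata1 UMI in every cell, it raises this level most in the shallower 2 to 4 gene cells, and nothing is read from the difference.

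The 7 erythroid genes were higher or more often found in the 5 to 7 gene cells by construction of the split, and their values are given as a description. Klf1, the erythroid transcription factor, was at 246 and 287 CPM in the 5 to 7 gene cells of KO replicate 3 and WT replicate 4, at 61.1 and 65.4 CPM in the 2 to 4 gene cells, and at 3.30 and 4.07 CPM elsewhere. Car1, the carbonic anhydrase of early red cell progenitors, was at 4292 and 4640 CPM, then 143 and 661 CPM, then 7.65 and 35.4 CPM. Every 5 to 7 gene cell of both libraries held Car1, with 4 to 291 UMIs in KO replicate 3 and 9 to 385 UMIs in WT replicate 4, whereas 8 and 18 of the 37 cells with 2 to 4 genes did.

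Ermap and Rhd, 2 surface proteins of red cells that carry blood groups, were found mostly in the 5 to 7 gene cells among the gated cells of these libraries. Ermap was at 219 and 215 CPM there and was found in 1 of 37 cells with 2 to 4 genes in each library. Rhd was at 163 and 193 CPM and was found in 1 and 0 of 37 such cells. Aqp1, the red cell water channel, was at 312 and 443 CPM in the 5 to 7 gene cells and 110 and 106 CPM in the others, where 27 and 22 of 37 cells held it. Epor was at 108 and 79.6 CPM against 50.9 and 29.3 CPM. Icam4, an adhesion protein of red cells, was at 59.0 and 74.0 CPM in the 5 to 7 gene cells and 87.6 and 67.6 CPM in the 2 to 4 gene cells. Of the 37 cells with 2 to 4 genes in each library, Klf1 was found in 15 and 20, Epor in 20 and 13, and Icam4 in 24 and 23.

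Red cell genes that the rule does not read followed the same division in both libraries. Of 7 heme synthesis genes with at least 20 CPM in the higher of 2 cell sets, 5 were at least 2-fold higher in gated than in other kept cells of KO replicate 3, and of 10 such genes 9 were in WT replicate 4. Over all genes tested this held for 2.93% and 6.88%, and 7.22% and 18.3% were at least 2-fold lower. In the other kept cells 5 heme genes reached 20 CPM in the higher of the 2 libraries. Genes that passed only through the gated cells could only be higher, so the count is a description. The median log2 fold over the heme genes was 1.15 and 1.79, and over all genes 0.02 and -0.09. The heme genes summed to 1017 and 1266 CPM in the 5 to 7 gene cells, 428 and 410 CPM in the 2 to 4 gene cells and 316 and 286 CPM elsewhere. Alad, the second enzyme of the pathway, was at 343 and 408 CPM against 143 and 124 CPM in the 2 to 4 gene cells. Cpox, a late enzyme, was at 86.7 and 120 CPM against 4.07 and 4.51 CPM, a 21.3-fold (95% conditional binomial interval 5.31 to 185) and 26.6-fold (7.30 to 221) difference. Alas1, the housekeeping first enzyme, was lower in gated than in other cells, at 12.8 against 44.0 CPM and 16.4 against 38.0 CPM. Alas2, its red cell counterpart, had 0 and 8 UMIs.

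Membrane genes were divided the same way. Of the list of 17, 10 and 14 reached 20 CPM, and 6 and 10 were at least 2-fold higher in gated cells. In the other kept cells 4 reached 20 CPM in the higher of the 2 libraries. Members that passed only through the gated cells could only be higher, so these counts are descriptions. Ank1, the ankyrin that ties the membrane to the skeleton, was at 55.5 and 103 CPM in 5 to 7 gene cells and 6.11 and 2.25 CPM in the 2 to 4 gene cells. Add2, an adducin of the same skeleton, was at 79.8 and 80.1 CPM against 0 and 6.76 CPM. Rhag, the partner of Rhd, was 5.79-fold (2.05 to 20.1) and 6.79-fold (3.06 to 18.7) higher in the 5 to 7 gene cells. Slc4a1 (band 3) and Epb42, which come later, had 0 UMIs each in KO replicate 3 and 6 and 5 UMIs in WT replicate 4. Mfsd2b broke the division: it was at 139 and 93.3 CPM in the 5 to 7 gene cells and 157 and 113 CPM in the 2 to 4 gene cells, against 12.4 and 5.50 CPM elsewhere.

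Some iron genes were also higher in the 5 to 7 gene cells. Tfrc, the transferrin receptor, was at 55.5 and 76.8 CPM in the 5 to 7 gene cells and 24.4 and 13.5 CPM in the others, and Glrx5, which serves iron-sulfur clusters, at 52.0 and 66.0 CPM against 4.07 and 11.3 CPM. Fth1, the ferritin heavy chain, was 2.18-fold (1.95 to 2.43) and 1.94-fold (1.79 to 2.10) higher in the 5 to 7 gene cells. Of the iron list, 5 of 7 genes at 20 CPM and 6 of 8 were at least 2-fold higher in gated than in other cells. In the other kept cells 3 reached 20 CPM in the higher of the 2 libraries, so this count has the same limit. The sum of the list differed less, at 1.03-fold (0.994 to 1.07) and 1.39-fold (1.37 to 1.42). It was at 4875 and 5436 CPM in the 5 to 7 gene cells. In the 2 to 4 gene cells it was at 2626 and 3193 CPM, below its 3349 and 3621 CPM elsewhere.

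Among other progenitor genes, 7 of 11 and 9 of 11 were at least 2-fold higher in gated cells. In the other kept cells 7 of the list reached 20 CPM in the higher of the 2 libraries. Blvrb, a biliverdin reductase of red cells, was at 611 and 719 CPM in the 5 to 7 gene cells and 93.7 and 110 CPM in the 2 to 4 gene cells, 6.52-fold (4.69 to 9.22) and 6.51-fold (4.90 to 8.83). Cldn13, a claudin of mouse red cell precursors, had 19 and 261 UMIs in 5 to 7 gene cells and 0 in all 74 cells with 2 to 4 genes. Apoe and Muc13 ran the other way. Apoe, a lipid carrier, was at 219 and 117 CPM in the 5 to 7 gene cells and 589 and 552 CPM in the 2 to 4 gene cells, against 87.1 and 63.2 CPM elsewhere. Muc13, the membrane mucin named in the study's title, was at 65.9 and 55.6 CPM in the 5 to 7 gene cells and 328 and 289 CPM in the 2 to 4 gene cells, against 221 and 109 CPM elsewhere.

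**Figure D3:**
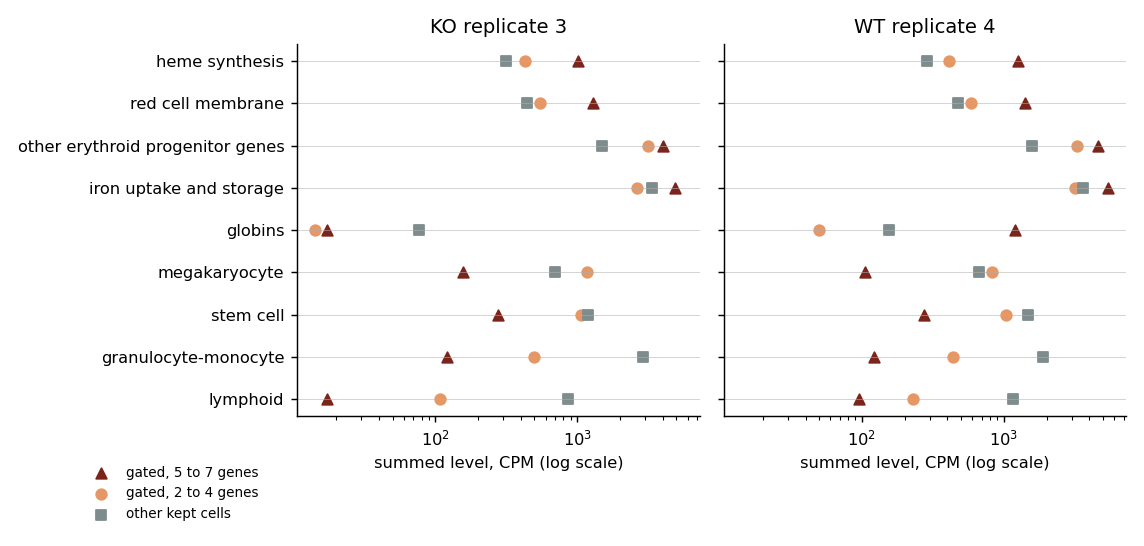
Summed level of 9 gene lists, in CPM on a log scale, in the gated cells with 5 to 7 erythroid genes (triangles), those with 2 to 4 (circles) and all other kept cells (squares) of KO replicate 3 (left) and WT replicate 4 (right). Heme synthesis is at 1017 and 1266 CPM in the triangles, and the megakaryocyte list is at 156 and 105 CPM there against 1172 and 823 CPM in the circles.

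Of the GATA1 partners at 20 CPM, 2 of 13 in KO replicate 3 and 3 of 13 in WT replicate 4 were at least 2-fold higher in gated cells. None was 2-fold lower. Over all genes tested 2.93% and 6.88% were higher and 7.22% and 18.3% lower. Gfi1b, a repressor that works with GATA1, was at 125 and 114 CPM in the 5 to 7 gene cells, 73.3 and 47.4 CPM in the 2 to 4 gene cells and 29.9 and 21.1 CPM elsewhere. Gata2, which GATA1 replaces as red cells form, was at 52.0 and 32.5 CPM in the 5 to 7 gene cells and 247 and 174 CPM in the 2 to 4 gene cells, 0.211-fold (0.115 to 0.362) and 0.187-fold (0.133 to 0.263). Tal1, Lmo2 and Myb stayed within 2-fold of the other kept cells in both libraries. Of the erythropoietin signalling genes none was 2-fold higher and 1, the survival kinase Pim1, was 2-fold lower in each library (79.6 against 293 CPM and 41.3 against 147 CPM).

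Stem cell and megakaryocyte genes were higher in the 2 to 4 gene cells than in the 5 to 7 gene cells, the stem cell list without reaching its level elsewhere. The stem cell list summed to 278 and 272 CPM in the 5 to 7 gene cells, 1070 and 1035 CPM in the 2 to 4 gene cells and 1184 and 1476 CPM elsewhere. Meis1, a stem cell homeobox gene, was at 86.7 and 50.9 CPM against 489 and 498 CPM, and Mecom at 20.8 and 28.3 CPM against 222 and 196 CPM. The 2 to 4 gene cells thus kept Meis1 at or above its level elsewhere, 384 and 454 CPM. Procr and Hlf, 2 genes of the most immature stem cells, were low in the 2 to 4 gene cells as well: Hlf was at 40.7 and 51.9 CPM there against 149 and 237 CPM elsewhere, and Procr at 4.07 and 6.76 CPM against 22.1 and 37.4 CPM.

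The megakaryocyte list, which leaves out Pf4, summed to 156 and 105 CPM in the 5 to 7 gene cells and to 1172 and 823 CPM in the 2 to 4 gene cells, above its 694 and 671 CPM elsewhere. Itga2b was at 13.9 and 3.77 CPM against 149 and 72.2 CPM, and Gp9, a subunit of the platelet receptor for von Willebrand factor, at 10.4 and 4.71 CPM against 126 and 54.1 CPM. Ppbp, Gp1bb, Gp6, Mpig6b and Clec1b, which include late platelet genes, had 0 UMIs in KO replicate 3 and 1 UMI in all (Ppbp) in WT replicate 4. In the cells removed for Pf4 the same list summed to 2776 and 1543 CPM. Red cell genes beyond the rule thus marked the 5 to 7 gene cells, as the name erythroid-leaning says, while the 2 to 4 gene cells carried Gata1, Gata2, Mfsd2b and Apoe beside megakaryocyte and stem cell genes.

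Cell by cell the medians stood apart and the ranges overlapped. Heme synthesis, as CPM within a cell, had a median of 833 (lowest 304, highest 1578) in the 10 cells with 5 to 7 genes of KO replicate 3 and 1074 (355 to 6813) in the 68 of WT replicate 4, against 372 (209 to 911) and 365 (0 to 1150) in the 2 to 4 gene cells. The stem cell list had medians of 163 (78.9 to 1116) and 202 (0 to 1460), against 946 (116 to 2571) and 825 (43.0 to 2576). The highest heme value belongs to a cell with 2055 UMIs, the lowest depth among the 68 cells. Among the same 68, the highest membrane, iron and globin values were 6813, 16058 and 171290 CPM within a cell. What part low depth has in the highest values was not tested.

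**Figure D4:**
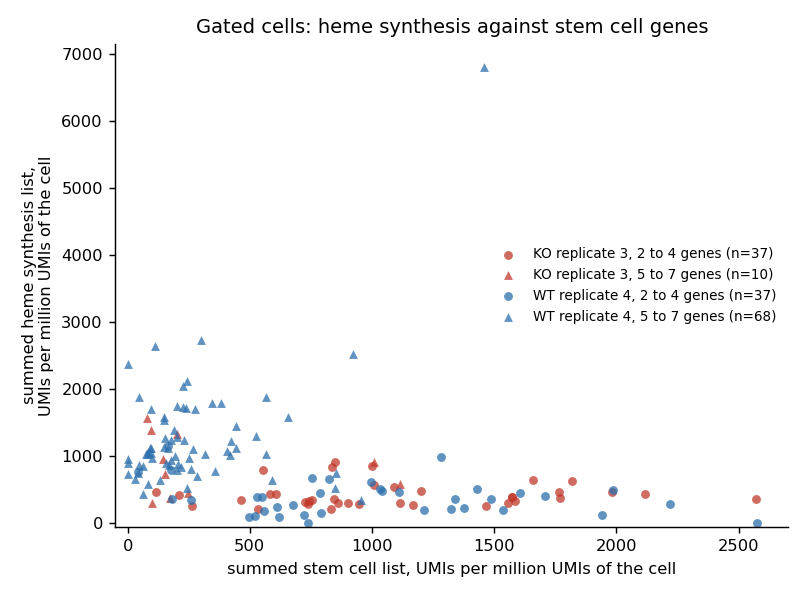
Each point is 1 gated cell of KO replicate 3 (red) or WT replicate 4 (blue), with its summed stem cell genes on the x axis and summed heme synthesis genes on the y axis, both as CPM within the cell; triangles hold 5 to 7 and circles 2 to 4 of the erythroid genes. Triangles lie mostly at the upper left, with median stem cell values of 163 and 202, and circles along the bottom, with medians of 946 and 825.

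Granulocyte-monocyte and lymphoid markers were lower in gated cells, macrophage markers had few UMIs, and basophil and mast cell markers differed by number of erythroid genes. The granulocyte-monocyte list summed to 357 and 177 CPM against 2903 and 1903 CPM elsewhere, and each of the 8 and 9 members at 20 CPM was at least 2-fold lower. Mpo was at 97.6 and 62.0 CPM against 1070 and 597 CPM. The lymphoid list summed to 74.5 and 119 CPM against 864 and 1152 CPM, with each of 6 and 7 such members at least 2-fold lower. In gated cells 5 granulocyte-monocyte and 2 lymphoid genes reached 20 CPM in the higher of the 2 libraries. Members that passed only through the other cells could only be lower. Macrophage genes, which would mark the nurse cells of red cell islands, summed to 3.85 and 2.34 CPM against 10.9 and 8.73 CPM, and Adgre1, Vcam1, C1qa and Mrc1 were at 0. The endothelial list summed to 84.7 and 87.7 CPM against 190 and 249 CPM, nearly all of it Egfl7 (79.6 and 80.7 CPM), with Cdh5 and Stab2 at 0. Plvap, an endothelial gene, had 0 UMIs in KO replicate 3 and 8 in WT replicate 4, 3.12 CPM against 0.288 CPM elsewhere. The basophil and mast cell list, which leaves out Ms4a2 and Mcpt8, summed to 34.7 and 22.1 CPM in the 5 to 7 gene cells and 128 and 104 CPM in the 2 to 4 gene cells, against 127 and 91.1 CPM elsewhere. Il1rl1, the interleukin 33 receptor known from mast cells, was at 15.4 and 14.8 CPM (12 and 38 UMIs) against 0.644 and 0.969 CPM, while the mast cell proteases Cma1 and Tpsb2 had 0 UMIs.

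The sort genes were uneven. Kit was found in 41 of 47 (87.2%) and 84 of 105 (80.0%) gated cells, at 130 and 102 CPM, against 137 and 143 CPM elsewhere. Ly6a, the Sca-1 gene, was found in 5 of 47 (10.6%) and 11 of 105 (10.5%) gated cells, against 34.6% and 30.4% of the other kept cells, which are shallower. Its level was 8.99 and 5.85 CPM against 48.6 and 45.8 CPM. Thinned to 3000 UMIs, 1 of 47 gated cells (2.13%) and 2 of 104 (1.92%) held it, against 14.8% and 13.6% of the others. Sca-1 protein, on which cells were sorted, was not measured here.

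Across all genes, 166 were at least 2-fold higher and 454 at least 2-fold lower in gated than in other kept cells in both list B libraries. No test was made, since each label had only 1 library with at least 10 gated cells, the minimum set for one. Pklr, the red cell form of pyruvate kinase, stood furthest above, at 27.0 and 55.7 CPM against 0.0379 and 0.358 CPM, and was found in 8 of 47 and 52 of 105 gated cells. Sphk1, which makes the sphingosine 1-phosphate that Mfsd2b exports, was at 56.5 and 134 CPM against 0.101 and 1.08 CPM. It was found in 6 of 47 and 52 of 105 gated cells. The metallothionein gene Mt2 was at 158 and 298 CPM against 0.505 and 2.60 CPM, and Slc25a21, a mitochondrial carrier of oxodicarboxylates, at 207 and 556 CPM against 1.35 and 4.86 CPM. Mt2 was found in 9 and 57 gated cells and Slc25a21 in 12 and 68. Prss50, Asb17os, Atp1b2, Slc38a5, Col5a1, Add2, Tspo2 and Cldn13 completed the 12 furthest above, with folds of 74.3 to 661 in KO replicate 3 and 73.5 to 125 in WT replicate 4. Each of these last genes was found in 4 to 11 gated cells of KO replicate 3 and 35 to 63 of WT replicate 4.

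The 8 genes furthest below were Elane, Igkc, Wfdc17, Dntt, Ighm, Prss34, Cd74 and Atp8b4. Elane, neutrophil elastase, was at 6.42 and 7.79 CPM against 247 and 337 CPM, 0.0259-fold (0.00842 to 0.0605) and 0.0231-fold (0.0141 to 0.0357). Dntt was at 7.70 and 14.4 CPM against 226 and 261 CPM, and Cd74, the class II invariant chain, at 3.85 and 5.07 CPM against 47.2 and 125 CPM. Against other Gata1 cells in place of all other cells, 86 genes were at least 2-fold higher and 142 lower, 85 and 93 of them among the 166 and 454.

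Between the labels, gene levels were set side by side for KO replicate 3 and WT replicate 4. The minimum of 10 gated cells a library left 1 library a label and so no test. The gated sums of the 2 libraries hold the 5 to 7 and the 2 to 4 gene cells in different shares. These sets are a cut on the rule's own genes that moves with depth. Thinned to 3000 UMIs, 2 of 16 and 6 of 32 gated cells held 5 to 7 genes. Between the gated sums, 6.92% of the genes tested were at least 2-fold higher and 2.53% at least 2-fold lower in KO replicate 3. In the other kept cells the shares were 0.149% and 0.536%, which cannot be set against those of the gated cells: the gated sums rest on 47 and 105 cells, so that genes near 20 CPM hold few UMIs and counting error alone puts some of them past 2-fold. Genes of the 2 to 4 gene cells were among those higher in KO replicate 3: of the 18 megakaryocyte genes 7 reached 20 CPM in a library and were at least 2-fold higher, Itga2b at 98.8 against 15.6 CPM. Itga2b, Gp9 and F2r reached 20 CPM only in KO replicate 3, and of the genes below it Gp5 was at 2.57 against 4.29 CPM and Vwf at 3.85 against 4.68 CPM. Of 14 membrane genes at 20 CPM 7 were lower in KO replicate 3 and 0 higher. Within the 5 to 7 gene cells, 2 of 15 membrane genes and 1 of 9 heme genes were at least 2-fold lower and 0 higher in KO replicate 3. Over all genes tested there, 3.76% were higher and 5.32% lower. In the 2 to 4 gene cells the megakaryocyte list stayed higher in KO replicate 3, at 1172 against 823 CPM. Of its 7 genes at 20 CPM there, 3 were at least 2-fold higher and 0 lower, beside 5.5% of genes higher and 3.87% lower.

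Globin RNA was the clearest gap between the 2 libraries. The globin genes, of which Hba-a1 and Hba-a2, and Hbb-bs and Hbb-bt, are near copies whose reads may be split unevenly, summed to 15.4 CPM in gated cells of KO replicate 3 and 1007 CPM in those of WT replicate 4. In KO replicate 3, 12 globin UMIs lay in 5 of 47 cells. In WT replicate 4, 2583 lay in 50 of 105 cells, up to 572 in a cell, and 5 cells held 70.6% of them. The median gated cell of WT replicate 4 held 0. Hbb-bs, the adult beta globin, had 2 against 1367 UMIs and Hba-a1 3 against 822. In the 5 to 7 gene cells alone the sums were 17.3 against 1206 CPM. In the other kept cells globin RNA was at 77.1 CPM in KO replicate 3 and 156 CPM in WT replicate 4, and single cells weighed on both. The highest count in 1 cell was 841 of 958 Hbb-bs UMIs and 395 of 463 Hba-a1 UMIs in KO replicate 3. In WT replicate 4 it was 3513 of 4802 and 1713 of 2654. Hbb-bs was found in 1.22% and 3.39% of the other kept cells. Hbb-bt ran the other way, at 58.0 against 50.03 CPM, and made up 4592 of 6106 and 4338 of 13517 globin UMIs there. What part RNA outside the gated cells has in the gap was not tested. Among the Gata1 cells left out for Pf4 the order was the other way, 506 against 198 CPM, and in KO replicate 3 a single such cell held 841 of the 850 Hbb-bs UMIs.

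**Figure D5:**
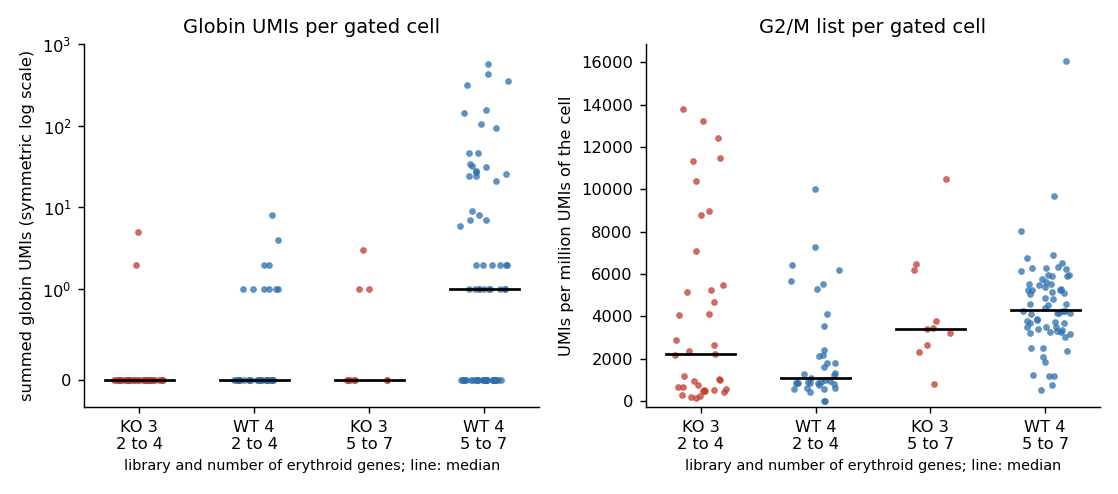
Globin UMIs per gated cell (left, symmetric log scale) and summed G2/M genes as CPM within the cell (right), by library and by number of erythroid genes; each point is a cell and the black line the median. Globin UMIs reach 572 in cells of WT replicate 4 with 5 to 7 genes and 3 in those of KO replicate 3, and the G2/M medians of the 2 to 4 gene cells are 2224 and 1073.

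The heat shock genes Hspa1a and Hspa1b, inducible chaperones, had 0 UMIs in the 47 gated cells of KO replicate 3 and 198 and 95 UMIs in WT replicate 4, in 41 and 40 of 105 cells. These genes differed in the same direction in the other kept cells, at 0.859 against 29.4 CPM and 0.114 against 3.64 CPM, so the gap was not limited to gated cells. Fos, an immediate early gene, likewise was at 214 against 661 CPM in the 2 to 4 gene cells and at 256 against 595 CPM elsewhere.

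In the 2 to 4 gene cells cell division genes differed between the libraries, beside 5.5% of genes at least 2-fold higher and 3.87% lower in KO replicate 3. Of 22 G2/M genes 13 were at least 2-fold higher there and 0 lower, with a median log2 fold of 1.21 against 0.03 over all genes. Ube2c, which loads ubiquitin at the end of mitosis, was at 361 against 54.1 CPM, and Ccnb1, cyclin B1, at 118 against 24.8 CPM. Cdkn3 was found in 9 against 1 of 37 cells. The G2/M sum, as CPM within a cell, had a median of 2224 (133 to 13771) against 1073 (0 to 9999), and 5 cells held 46.9% and 48.1% of the G2/M UMIs. Lymphoid genes also differed in these cells, with 4 of 6 at 20 CPM at least 2-fold lower in KO replicate 3 (108 against 230 CPM in sum). Among them was Flt3, a receptor of early lymphoid progenitors, at 24.4 against 63.1 CPM. The other 3, Dntt, Ighm and Satb1, reached 20 CPM only in WT replicate 4. The sums rest on 53 and 102 UMIs, of which 5 cells held 56.6% and 53.9%. This direction was not limited to the 2 to 4 gene cells: the lymphoid sums were 17.3 against 95.6 CPM in the 5 to 7 gene cells (5 and 203 UMIs) and 864 against 1152 CPM elsewhere. The G2/M sums were 4406 and 4721 CPM in the 5 to 7 gene cells, with 0 of 22 G2/M genes 2-fold apart, and 3060 and 2929 CPM elsewhere. The S phase list had 0 of 19 genes 2-fold apart in the 2 to 4 gene cells.

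Fcer1a, the alpha chain of the IgE receptor, was at 39.8 CPM in the gated cells of KO replicate 3 (31 UMIs in 12 cells) and 1.56 CPM in those of WT replicate 4 (4 UMIs in 2 cells). In the other kept cells it was at 7.45 and 4.07 CPM. Cpa3, a mast cell protease, was at 44.8 and 40.6 CPM in the 2 to 4 gene cells of both libraries and at 0 and 3.77 CPM in the 5 to 7 gene cells. Of the 17 S100a9 UMIs in gated cells of KO replicate 3, all lay in 2 cells.

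B4galt1 was at 28.2 CPM (22 UMIs in 13 of 47 cells) in the gated cells of KO replicate 3 and 22.2 CPM (57 UMIs in 37 of 105) in those of WT replicate 4. In the other kept cells it was at 27.4 and 35.2 CPM. Of its family, B4galt4 had 0 UMIs in KO replicate 3 and 13 in WT replicate 4, and the others reached at most 14.1 and 12.9 CPM in gated cells. In the 2 to 4 gene cells B4galt4 had 0 against 10 UMIs, the latter in 9 of 37 cells, with a 95% upper limit of 0.403 for the fold, while elsewhere it was at 17.8 and 16.0 CPM. The family summed to 55.01 against 94.7 CPM in those cells (27 and 42 UMIs). There 2 of 3 members at 20 CPM, B4galt4 and B4galt7, were at least 2-fold lower in KO replicate 3, and both reached 20 CPM only in WT replicate 4. Over all genes tested in those cells 5.5% were higher and 3.87% lower. With so few members and UMIs the count is a description. The direction was the other way in the 5 to 7 gene cells, where the family summed to 76.3 against 48.5 CPM. Of 2 members at 20 CPM in those cells, 1 was at least 2-fold higher in KO replicate 3 and 0 lower, beside 3.76% of genes higher and 5.32% lower. Over all gated cells the sums were 62.9 against 56.5 CPM. Muc13 was at 231 against 95.9 CPM in all gated cells, but at 65.9 against 55.6 CPM in the 5 to 7 gene cells and 328 against 289 CPM in the 2 to 4 gene cells, while elsewhere it was at 221 against 109 CPM. Of the Wnt target genes, Lef1, Tcf7, Lgr5 and Notum had 0 UMIs in gated cells of both libraries. Myc was at 155 and 116 CPM against 234 and 140 CPM elsewhere.

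The few gated cells of list A were set beside the 2 sets cut by gene number. Those of KO replicate 1 fell to the 2 to 4 gene cells and those of WT replicate 2 to the 5 to 7 gene cells by their gene number. The 5 cells of KO replicate 1 had summed levels of 1096 CPM for Meis1, 1096 CPM for Apoe, 172 CPM for Muc13 and 94.0 CPM for Itga2b, with 78.3 CPM for Car1, all of it in 1 cell, and 0 UMIs of Ermap and Cldn13. The 3 cells of WT replicate 2, with 34565 to 46928 UMIs each, had 3088 CPM for Car1, 747 CPM for Blvrb and 125 CPM for Cldn13, with 8.30 CPM for Meis1 and 0 UMIs of Muc13 and Itga2b. Globins had 0 UMIs in the former and 11 in the latter. With 5 and 3 cells, this is a description and was not tested.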

How the data were processed

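Single-cell 3′ RNA libraries of 7 LSK samples were analysed from the deposited UMI counts per gene and barcode. Per the file headers these counts came out of Cell Ranger 7.0.0, run by the authors, and the submitters' processing notes add mm10 and Seurat 4.4.0. Counts are raw, so CPM were computed here from summed cells. Of the deposited barcodes, cells with at least 1000 UMIs, 500 genes and at most 10% mitochondrial UMIs were kept (median depth 8046 to 11083.5 UMIs). No doublet caller was run; leaving out cells over 2 times the median UMIs was an alternative. The barcode list was read from the first 7 bases.

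Members and gene lists were chosen with earlier results of these data known. Analyses used Python 3.11.15, numpy 2.4.6, scipy 1.17.1, pandas 2.3.3 and matplotlib 3.10.9. Shares were compared over libraries with exact permutation tests. Models over all genes needed 2 libraries a label with at least 10 gated cells; only 1 each had them, so those tests could not be fitted and genes are described with exact Poisson and conditional binomial intervals, at least 2-fold with at least 20 CPM in the higher set (and at least 10 UMIs within subsets). Folds against 0 UMIs used a floor of 3 UMIs per sum. Named genes were the 11 of the rule, list genes, B4galt1 and Muc13, the 12 genes furthest above and 8 furthest below other cells in both libraries (ribosomal, mitochondrial, Gm and Rik names left out), and the largest gaps between KO replicate 3 and WT replicate 4 by their interval. Of 225 list genes, 1 (Ahsp) was not used here, and some genes that the rule would name are not reported here. The rule and the permutation test were tested on simulated data. Same-numbered replicates are not said to be paired.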

Additional observations from a re-analysis of the deposited data

Results flagged for a closer look

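The share of kept cells with a Gata1 UMI was 4.28% in WT replicate 4, while the other WT libraries had 1.05, 1.54 and 1.40%. The gap from WT replicate 4 to its nearest neighbour was 0.848 of the whole range of the 4 libraries, above Dixon's 95% critical value of 0.829. Chance flags about 1 in 20 groups. WT replicate 4 is the only WT library of barcode list B. The gated share of the same library, 1.18%, had a gap of 0.784 of the range and did not pass. Only groups of at least 4 libraries were examined in this way, so the 3 KO libraries could not be flagged. Their Gata1 shares were 1.95, 1.10 and 7.82%, the last in KO replicate 3, the only KO library of list B.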

How the results depend on the processing

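The share of gated cells by label did not pass the test under any of 16 alternatives (exact permutation p 0.543 to 1), and its direction was not stable. List A alone, the runs with a library left out and the block hold too few libraries to reach 0.05 with any data. For these only the direction and size can be read. The difference of -0.0774 percentage points turned to 0.125 without cells over 2 times the median UMIs and 0.455 without the demand on Pf4, Ms4a2 and Mcpt8. With each library left out in turn it ranged from -0.279 to 0.197 (0.0640 without KO replicate 2, 0.197 without WT replicate 4). With replicate numbers 1 to 3 as a block, which leaves out WT replicate 4, it was 0.197 (exact permutation p = 0.75, in a test too small to pass). The Gata1 share ranged from -0.537 (without KO replicate 3) to 2.82 and was 2.30 under the block; the share of cells with 5 to 7 genes kept its direction under all 15 alternatives, from -0.292 to -0.0367 with each library left out, and was -0.0367 under the block. The gap in the 5 to 7 gene share between KO replicate 3 and WT replicate 4, 43.5 percentage points, was 6.25 at 3000 UMIs, 20.03 without cells of high UMIs and 57.5 with at least 2 Gata1 UMIs. Genes at least 2-fold higher in gated cells in both libraries, 166, were 277 with no minimum CPM, 93 without cells of high UMIs (47 shared) and 86 against other Gata1 cells. The 454 lower genes were 787, 235 (208 shared) and 142 in the same order, and 703 with at least 3 erythroid genes. Between the 2 libraries, 454 higher and 166 lower genes became 1280 and 360 with no minimum CPM, and the lower ones 319 without cells of high UMIs (59 shared). For settings that change the cells or the genes counted, the cause of the change was not tested. The split at 5 genes with its alternatives, the equal weighting of cells and the block on shares were chosen after seeing the data. No paired analysis was possible for genes because only 1 library a label had 10 gated cells. For the same reason edgeR, DESeq2, the interaction, the fits within list A or with at least 20 gated cells, and gene fits without each library were not run.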
